A study of Rattus norvegicus with 8 samples.

Results

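The genes described here encode the proteins of the mitochondrial ribosome, the Mrpl genes of the large subunit and the Mrps genes of the small subunit, in the rat kidney after a sham operation or unilateral nephrectomy. Members were all non-control probes whose RefSeq accession carries a symbol that begins with Mrpl or Mrps and a number. The array holds 77 such probes for 66 genes, 42 of the large and 24 of the small subunit, among 35237 genes and unnamed features. Membership followed from the symbol alone. Both groups were female F344/NSlc rats aged 10 weeks, and the right kidney was taken from each: 4 samples followed a sham operation, and 4 followed the removal of 1 kidney, so that the sampled kidney was the one that remained. The design text places sampling 2 days after surgery, whereas the source names give 1 day for sham and 2 days for nephrectomized kidneys. Where the source names hold, every difference below joins day with operation, and these cannot be told apart. Because no label ties a sample to its own animal, the p-values cover only the spread among the 4 samples of a group, which may be technical.

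Mitochondria keep their own ribosomes, which translate the few messenger RNAs made from mitochondrial DNA into core subunits of the respiratory chain and ATP synthase. The RNA of this ribosome is transcribed inside the mitochondrion, but all of its proteins are encoded in the nucleus, made by cytosolic ribosomes and imported. Many of them have counterparts in bacterial ribosomes, and the others were gained in the mitochondrial lineage. The small subunit binds the messenger RNA and decodes it, and the large subunit joins the amino acids and guides the new protein through its exit tunnel to the inner membrane. The kidney tubule is rich in mitochondria because it reabsorbs salt and solutes by active transport.

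RNA of each sample was hybridised to its own 1-colour Agilent array. The 75th percentile of the processed signal lay between 388.1 and 643.5, no spot was saturated, and 59.5% to 66.1% of probes were well above background. All markers of proximal tubule (8), loop of Henle and distal nephron (8), podocytes (5) and endothelium (4) were well above background on every array. The fat marker Adipoq was also well above background on every array, and the adrenal marker Cyp11b1 on none. Relative to the sham mean, the mean of 5 leukocyte markers ran from -0.11 to 0.10 in sham and from -0.94 to -0.74 in nephrectomized kidneys (log2), and that of 8 proximal tubule markers from -0.17 to 0.07 and from -0.23 to 0.09. The mean of the 8 loop of Henle and distal nephron markers ran from -0.11 to 0.12 in sham and from 0.05 to 0.21 in nephrectomized kidneys, which overlapped. Among these markers the groups of Calb1, a calcium-binding protein of the distal tubule, were apart, without a call (difference 0.46 ± 0.09, SE; limma adjusted p = 0.0519). The called leukocyte genes were S100a9 (-1.40 ± 0.18, SE; limma adjusted p = 0.0187), S100a8 (-1.69 ± 0.25; 0.0358) and Adgre1 (-0.51 ± 0.09; 0.0476). Of 9 tested proliferation genes, 6 were called higher, with the smallest p for the DNA replication genes Mcm6 (1.56 ± 0.20, SE; limma adjusted p = 0.0176) and Mcm3 (1.41 ± 0.19; 0.0199) and the mitotic kinase Ttk (2.63 ± 0.43; 0.0396). Over the 21 alternatives the number called ran from 0 to 8 for proliferation genes and from 0 to 3 for leukocyte genes, and leaving out sham 1, sham 2 or nephrectomized 3 left 0 in both lists. In bulk tissue, fewer cells of a type and less RNA per cell cannot be told apart, and the part of these markers in the results below was not tested. The arrays lay on 2 slides with 2 arrays of each group on both, and sham arrays always took positions 1 and 2, so position and group cannot be told apart.

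Most mitochondrial ribosomal protein genes had slightly higher values in the nephrectomized than in the sham kidneys, and none passed the test. Levels are log2 processed signals minus the array's 75th percentile, and a difference is the nephrectomized minus the sham mean. The median difference of the 65 tested genes was 0.12, or 1.08-fold, against 0.01 over all 20935 features, and 56 of 65 differences were positive (86.2%, against 52.5% of all features). With limma and Benjamini-Hochberg adjustment over all features, 0 of 65 genes were called at 0.05, beside 0.75% of all features called higher and 0.287% called lower. The smallest adjusted p was 0.063, for Mrpl58. At an unadjusted limma p under 0.05 there were 21 genes, all higher, where all features gave 9.74% higher and 6.3% lower. The 4 nephrectomized values lay above the 4 sham values for 20 genes (30.8%, against 7.06% of all features), and below them for none (4.07% of all features).

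These differences are relative to the rest of the array. The unscaled processed signals of the 65 genes had a median difference of -0.15 on the log2 scale, only 1 of 65 was positive, and no gene's groups were apart in either direction. Over all features the unscaled median was -0.26, 8.09% were positive, and the groups were apart in 0.635% of features as higher and in 14.4% as lower. The 75th percentile itself was 643.5, 544.3, 459.8 and 561.8 on the sham arrays and 496.6, 457.3, 485.4 and 388.1 on the nephrectomized arrays. Scaling to the median, by quantiles or by cyclic loess gave member medians of 0.11, 0.09 and 0.09, with medians over all features between -0.01 and 0.00, so the sign was the same under each of these scalings. All 65 tested genes were well above background on all 8 arrays. The gene left out is Mrps24, a small-subunit protein, whose spot on sham 4 was marked as an outlier. It read 4.20, 4.13 and 3.96 on the other sham arrays and 4.30, 4.18, 4.02 and 4.16 on the nephrectomized arrays, which overlapped.

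**Figure D1:**
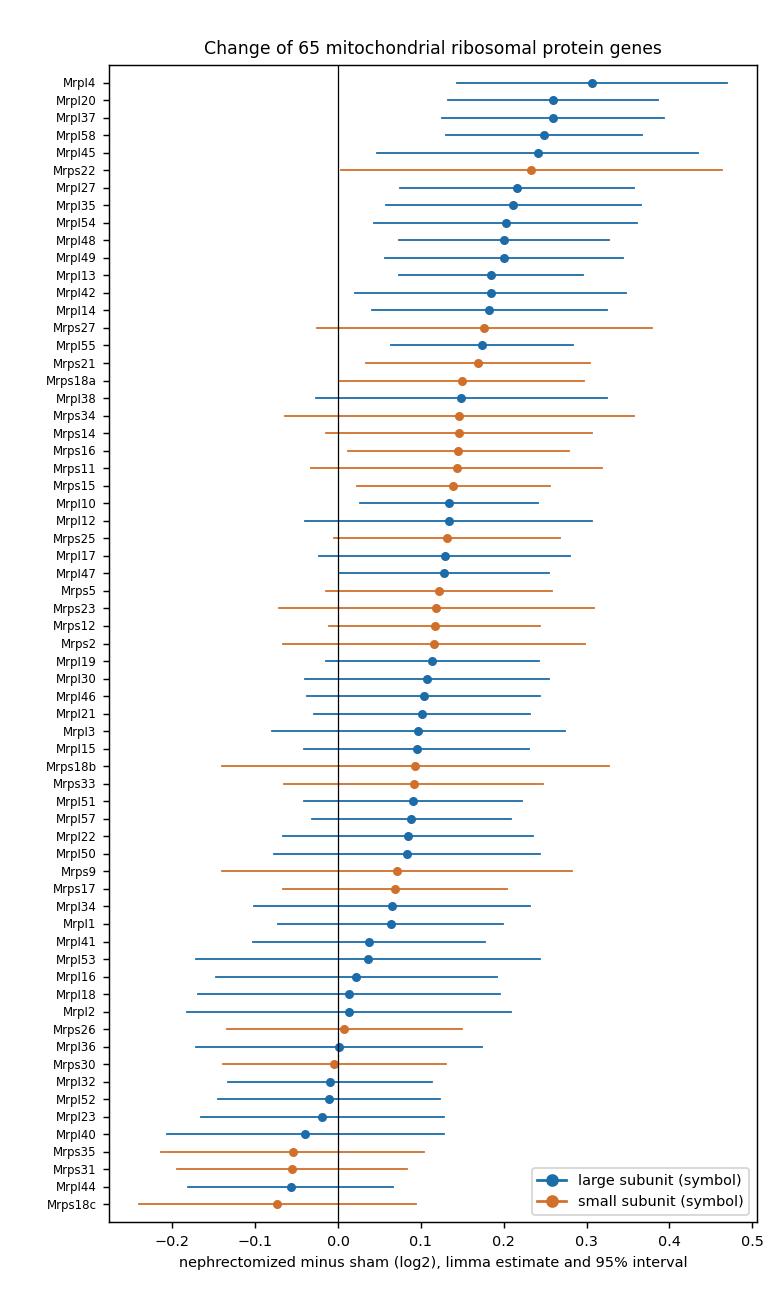
The difference of each of the 65 tested genes (x axis, nephrectomized minus sham, log2) with limma's 95% interval as a line; large-subunit genes are blue and small-subunit genes orange. The points run from -0.07 for Mrps18c to 0.31 for Mrpl4, and 21 intervals lie above 0 and none below it.

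Single differences ran from -0.07 to 0.31. They lay within 0.1 of 0 for 28 genes and reached 0.2 for 11 genes, which is 16.9% of the members and close to the 13.2% of all features at or above 0.2. Set against all features, few members were negative and the median was higher, while the share of larger differences was similar. The standard errors ran from 0.05 to 0.10 with a median of 0.06, smaller than the 0.09 of all features, and the intervals of 22 genes reached 0.3 or more. Missing the threshold does not show that a gene was alike in both groups.

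**Figure D2:**
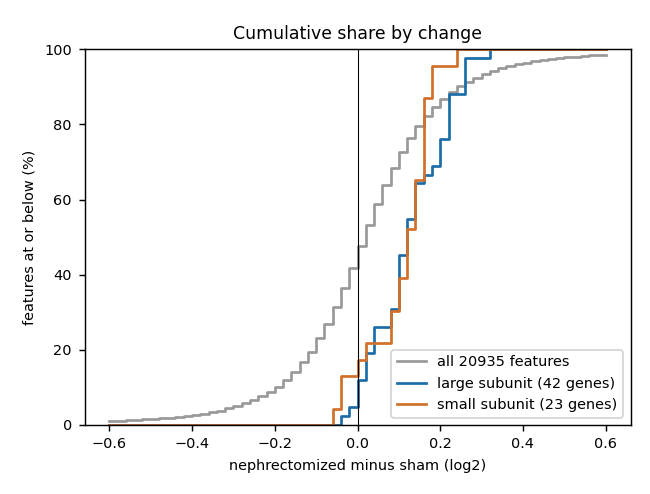
The share of features (y axis, percent) whose difference is at or below the value on the x axis (nephrectomized minus sham, log2), for all tested features in grey, the 42 large-subunit genes in blue and the 23 small-subunit genes in orange. Both subunit curves run to the right of the grey curve through 0 and cross it further right, the small-subunit curve between 0.14 and 0.16 and the large-subunit curve between 0.24 and 0.26.

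The gene with the smallest p was Mrpl58, also known as ICT1, a peptidyl-tRNA hydrolase built into the large subunit that frees chains from stalled ribosomes. It read 3.04, 2.97, 2.98 and 3.06 in sham kidneys and 3.28, 3.22, 3.23 and 3.31 in nephrectomized kidneys. All nephrectomized values were above all sham values, and the samples of each group lay close together. The difference was 0.25 ± 0.05 (SE, n = 4 each; 1.19-fold; limma adjusted p = 0.063), and it was 0.25 on each slide taken alone.

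Among the large-subunit proteins with bacterial counterparts, Mrpl4, which lines part of the exit tunnel, had the largest difference of all members. It read 1.68, 1.41, 1.42 and 1.55 in sham and 1.80, 1.82, 1.79 and 1.87 in nephrectomized kidneys. The sham samples were spread over a wider range (SD 0.12) than the nephrectomized samples (SD 0.04), without overlap. The difference was 0.31 ± 0.07 (SE; 1.24-fold; limma adjusted p = 0.085).

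Mrpl20, a protein of the large-subunit core, read 4.26, 4.32, 4.25 and 4.32 in sham and 4.55, 4.48, 4.52 and 4.64 in nephrectomized kidneys. The groups were apart, and nephrectomized 4 was the highest of the 8. The difference was 0.26 ± 0.06 (SE; limma adjusted p = 0.0672). Mrpl13, another core protein with a bacterial counterpart, read 4.36, 4.38, 4.33 and 4.40 in sham and 4.51, 4.57, 4.57 and 4.56 in nephrectomized kidneys. Its groups did not overlap, and the SD was 0.03 in both. The difference was 0.18 ± 0.05 (SE; limma adjusted p = 0.114). Mrpl27, whose bacterial counterpart reaches toward the peptidyl transferase centre, read 4.74, 4.75, 4.63 and 4.76 in sham and 5.01, 4.99, 4.83 and 4.92 in nephrectomized kidneys, again without overlap (difference 0.22 ± 0.06, SE; limma adjusted p = 0.139).

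The stalk of the large subunit recruits translation factors. Mrpl12, its repeated stalk protein, read 6.13, 6.08, 5.92 and 6.07 in sham and 6.33, 6.21, 6.10 and 6.10 in nephrectomized kidneys. Sham 1 exceeded nephrectomized 3 and 4, so the groups overlapped (difference 0.13 ± 0.08, SE; limma adjusted p = 0.43), and normexp background correction turned the sign, to -0.05. Mrpl10, which anchors the stalk, read between 0.73 and 0.78 in sham and between 0.87 and 0.91 in nephrectomized kidneys. Those groups were apart, with a difference of 0.13 ± 0.05 (SE; limma adjusted p = 0.214). Mrpl3, a protein of the subunit core, had a difference of 0.10 ± 0.08 (SE; limma adjusted p = 0.584), with sham values of 0.87, 0.75, 0.69 and 0.89 and nephrectomized values of 0.89, 0.74, 0.98 and 0.97. Of these 3 genes, the groups of Mrpl10 alone did not overlap.

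Around the tunnel exit the genes were spread out. Mrpl45, which tethers the ribosome to the inner membrane, had one of the larger differences, 0.24 ± 0.08 (SE; limma adjusted p = 0.214), with overlap: nephrectomized 1, at 2.36, lay below sham 4, at 2.42. Mrpl23, at the exit itself, read 3.40, 3.28, 3.27 and 3.33 in sham and 3.38, 3.29, 3.35 and 3.18 in nephrectomized kidneys. The groups overlapped, with nephrectomized 4 below every sham value (difference -0.02 ± 0.06, SE; limma adjusted p = 0.922). Mrpl22, a tunnel protein, had a difference of 0.08 and overlapping groups.

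Of the large-subunit proteins without a bacterial counterpart, Mrpl37 read 5.16, 5.28, 5.16 and 5.31 in sham and 5.45, 5.54, 5.49 and 5.47 in nephrectomized kidneys. The groups were apart (difference 0.26 ± 0.06, SE; limma adjusted p = 0.0787). Mrpl48 read 4.06, 4.18, 4.07 and 4.16 in sham and 4.29, 4.32, 4.28 and 4.38 in nephrectomized kidneys, also apart (difference 0.20 ± 0.06, SE; limma adjusted p = 0.126). Mrpl55 had the tightest sham values of these, from 3.79 to 3.84, against 3.97 to 4.03 in nephrectomized kidneys (difference 0.17 ± 0.05, SE; limma adjusted p = 0.127). Mrpl54 and Mrpl49 likewise had groups that did not overlap, each with a difference of 0.20. The same held for Mrpl35 and Mrpl14, which belong to families shared with bacteria, with differences of 0.21 and 0.18.

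The negative large-subunit genes were few and close to 0. Mrpl44, a protein with a ribonuclease III-like fold, read 3.53, 3.50, 3.45 and 3.61 in sham and 3.50, 3.47, 3.44 and 3.46 in nephrectomized kidneys. The nephrectomized values lay within or just under the sham range (difference -0.06 ± 0.05, SE; limma adjusted p = 0.652). Mrpl40 had a difference of -0.04, Mrpl52 and Mrpl32 both had -0.01, and all of them overlapped. Mrpl32 is matured by the m-AAA protease, whose subunits Afg3l2 and Spg7 had differences of 0.16 (limma adjusted p = 0.227) and 0.14 (adjusted p = 0.343).

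**Figure D3:**
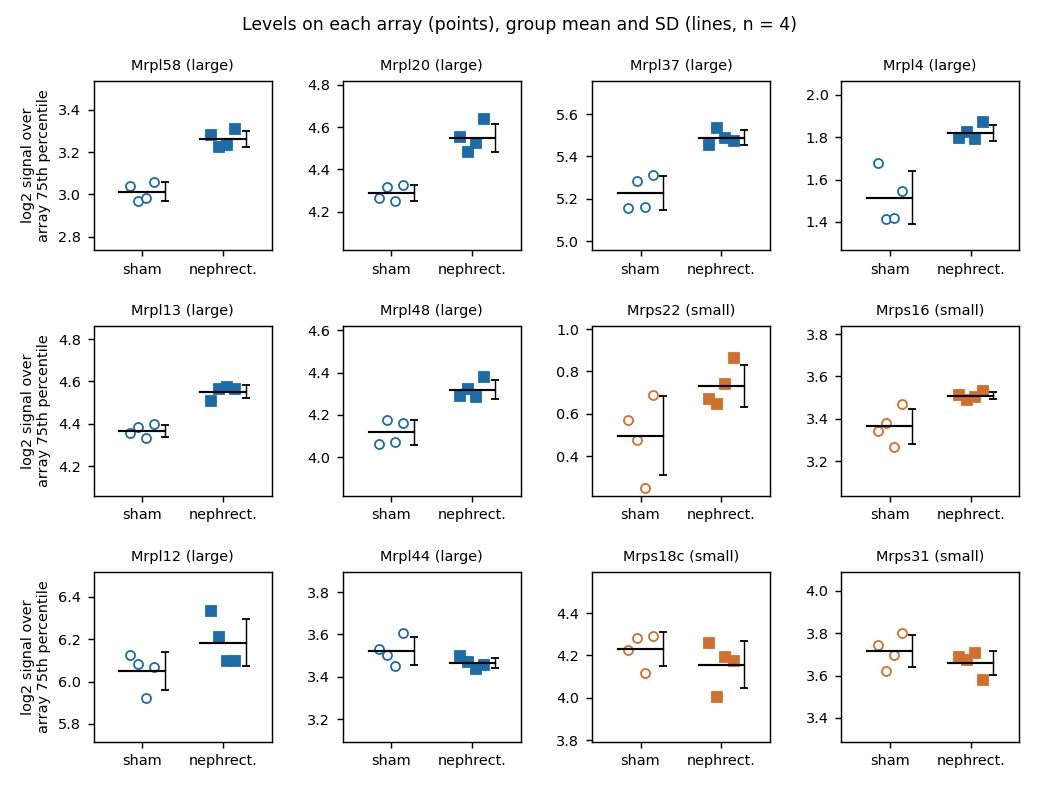
Level of 12 members on each array (y axis, log2 processed signal over the array's 75th percentile, every panel spanning the same height); open circles are sham, filled squares nephrectomized, and the bars give the mean and SD of 4 arrays. Groups are apart in the panels of Mrpl58, Mrpl20, Mrpl37, Mrpl4, Mrpl13, Mrpl48 and Mrps16 and overlap in those of Mrps22, Mrpl12, Mrpl44, Mrps18c and Mrps31.

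In the small subunit, Mrps22, a protein found only in mitochondria, had the largest difference. It read 0.57, 0.47, 0.25 and 0.69 in sham and 0.67, 0.64, 0.74 and 0.86 in nephrectomized kidneys. Sham 3 was low and sham 4 lay above nephrectomized 1 and 2, so the groups overlapped. The difference was 0.23 ± 0.10 (SE; limma adjusted p = 0.305), and it was 0.13 on slide 1 and 0.33 on slide 2.

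Proteins of the decoding region and the subunit body had smaller differences. Mrps12, which sits at the decoding centre, read 4.35, 4.34, 4.21 and 4.37 in sham and 4.41, 4.47, 4.43 and 4.43 in nephrectomized kidneys, without overlap (difference 0.12 ± 0.06, SE; limma adjusted p = 0.352). Mrps16 read 3.34, 3.38, 3.27 and 3.47 in sham and 3.51, 3.49, 3.50 and 3.53 in nephrectomized kidneys, and was apart by a narrow margin (difference 0.15 ± 0.06, SE; limma adjusted p = 0.275). Mrps21, Mrps14, Mrps15 and Mrps25 were the other small-subunit genes whose groups were apart, with differences of 0.17, 0.15, 0.14 and 0.13. Mrps2 had a difference of 0.12 ± 0.08 (SE; limma adjusted p = 0.523) and overlapping groups, from 2.80 to 3.02 in sham and from 2.88 to 3.10 in nephrectomized kidneys. Mrps34 ran from 5.83 to 6.18 in sham and from 6.08 to 6.33 in nephrectomized kidneys, again with overlap (difference 0.15 ± 0.09, SE; limma adjusted p = 0.483).

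The 3 genes related to bacterial S18 did not share a direction. Mrps18a, whose protein lies in the large subunit despite its name, read 3.58, 3.38, 3.41 and 3.44 in sham and 3.66, 3.64, 3.54 and 3.57 in nephrectomized kidneys, with overlap through sham 1 (difference 0.15 ± 0.06, SE; limma adjusted p = 0.306). Mrps18b was spread from 0.47 to 0.96 in sham and from 0.71 to 0.89 in nephrectomized kidneys (difference 0.09 ± 0.10, SE; limma adjusted p = 0.705). Mrps18c had the lowest difference of all members. It read 4.23, 4.28, 4.12 and 4.29 in sham and 4.26, 4.00, 4.19 and 4.17 in nephrectomized kidneys, with nephrectomized 2 the lowest of the 8 (difference -0.07 ± 0.07, SE; limma adjusted p = 0.673). The difference between these genes was not tested.

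Mrps31, Mrps35 and Mrps30 were the other small-subunit symbols with negative values, at -0.06 ± 0.06, -0.05 ± 0.07 and -0.0044 ± 0.06 (SE; limma adjusted p = 0.705, 0.752 and 0.981). Mrps30, whose protein also lies in the large subunit, ran from 3.59 to 3.77 in sham and from 3.60 to 3.72 in nephrectomized kidneys. Mrps35 was at 0.06 on slide 1 and -0.17 on slide 2, so its sign differed between slides. Mrpl11 and Mrps7, which were among the genes chosen for their role, were not among the members found on this array. Other mitochondrial ribosomal protein genes can be absent too. Only 18713 of 41012 probes were matched to a symbol, so absence can also reflect naming.

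Large and small subunits had close medians, and the larger differences were mostly in the large subunit. The median difference was 0.11 for the 42 large-subunit genes (37 positive) and 0.12 for the 23 small-subunit genes (19 positive), and the large minus small median was -0.01. The means were in the other order, 0.11 for the large and 0.10 for the small subunit, a gap of 0.02. Of the 11 genes at or above 0.2, 10 belonged to the large subunit. Ranked by p, 12 members of the large subunit came before the first of the small subunit, Mrps21, so the cut at 12 follows from the ranking itself. The large subunit makes up 64.6% of the tested members. At an unadjusted limma p under 0.05 there were 16 of 42 large-subunit genes (38.1%) and 5 of 23 small-subunit genes (21.7%), all higher, against 9.74% of all features. Groups were apart, all as higher, for 14 of 42 large-subunit genes (33.3%) and 6 of 23 small-subunit genes (26.1%), against 7.06% of all features. Whether the subunits differ in these shares was not tested. Moving Mrps30 and Mrps18a to the large subunit, where their proteins lie, left both medians at 0.11 and 0.12.

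Measured within each array, the large-subunit mean minus the small-subunit mean (each relative to its sham mean) was -0.02, 0.00, 0.04 and -0.03 in sham 1 to 4 and 0.01, 0.01, 0.03 and 0.02 in nephrectomized 1 to 4. All 4 nephrectomized values were positive but lay inside the sham range, so the subunits were not separated beyond the spread between samples.

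A split by evolutionary origin, made after the values were known, gave similar values as well. The 36 tested genes assigned to families shared with bacteria had a median of 0.11 with 33 positive, and the other 29 a median of 0.12 with 23 positive. Mrpl47, at 0.13 with overlapping groups, was counted among the 29 although it belongs to the bacterial L29 family, so the split is approximate. Groups were apart for 13 of the 36 and 7 of the 29 genes, all as higher, against 7.06% of all features. In the large subunit the medians were 0.10 for the 23 assigned as shared and 0.13 for the other 19, Mrpl47 among them. In the small subunit they were 0.12 for 13 and 0.10 for 10 (0.105 before rounding), so the order was opposite in the subunits.

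The arrays of a group did not all behave alike. The mean over the 65 genes, relative to the sham mean, was 0.02, 0.00, -0.08 and 0.06 in sham 1 to 4 and 0.13, 0.09, 0.11 and 0.10 in nephrectomized 1 to 4. The nephrectomized kidneys lay close together and above all sham kidneys, and sham 3 was the lowest array. Sham 3 held the lowest of the 8 values for 38 of 65 genes (58.5%), against 18.8% of all features. Without sham 3 the median difference was 0.08 and 50 of 65 genes were positive. The median SD of a member was 0.08 in sham and 0.06 in nephrectomized kidneys, below the 0.13 and 0.12 of all features.

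**Figure D4:**
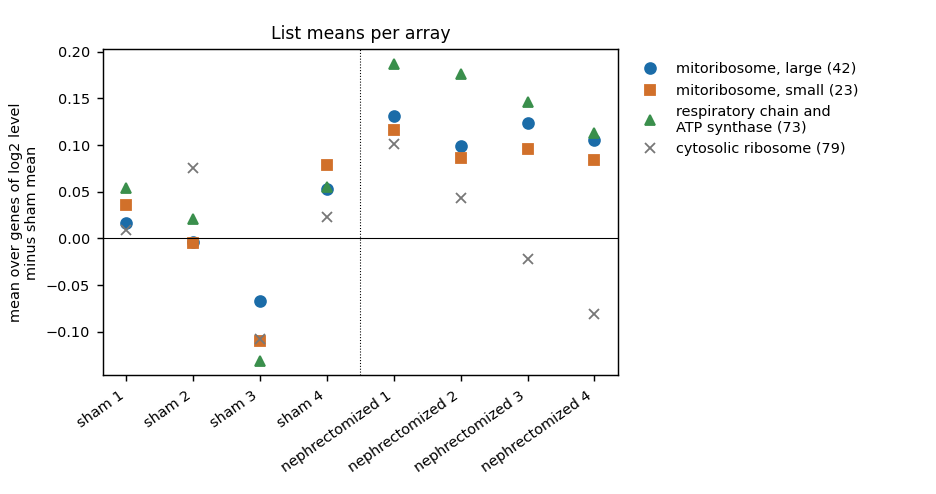
Mean over the genes of a list on each array (y axis, log2, minus the sham mean; x axis, the 8 arrays) for large-subunit genes (42), small-subunit genes (23), nuclear-encoded respiratory chain and ATP synthase genes (73) and cytosolic ribosomal proteins (79). Sham 3 is the lowest array in every list shown. The nephrectomized values lie above every sham value in both mitoribosome lists and in the respiratory chain and ATP synthase list, and overlap in the cytosolic list.

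The slides were also compared. The member median was 0.10 on slide 1 and 0.13 on slide 2. On both slides 52 of 65 genes were positive (80%, against 34.3% of all features), and 5 were negative on both. The medians of the large subunit were 0.11 and 0.13, and those of the small subunit 0.10 and 0.13. Each slide alone has 2 arrays a group, and limma then called none of the 20935 features on either slide. The lack of called members there is therefore not particular to them.

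**Figure D5:**
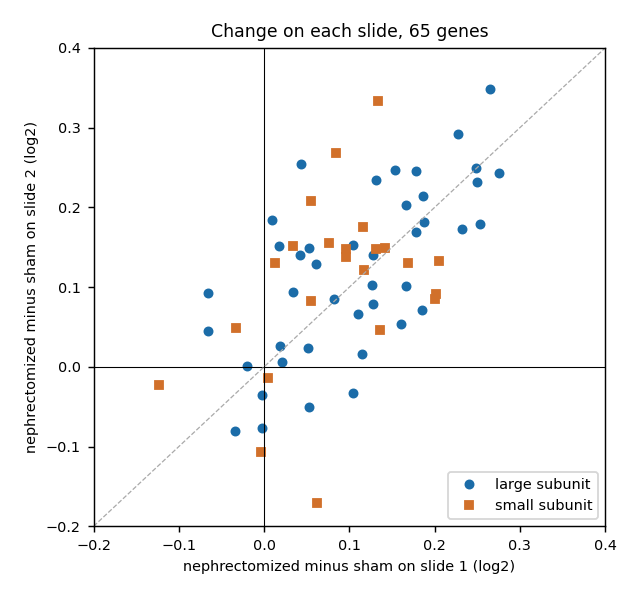
Difference of each member on slide 1 (x axis) and slide 2 (y axis), nephrectomized minus sham, log2, from 2 arrays a group on each slide; circles are large-subunit and squares small-subunit genes, and the dashed line marks equal values. Most points, 52 of 65, lie above 0 on both axes.

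Several probes measured 10 of the genes, and the probes of a gene never disagreed in sign. The median gap between probes of a gene was 0.06, and the largest was 0.21, for Mrps2, which exceeds the difference reported for that gene. The second Mrps2 probe, at 0.32, was well above background on only 4 of the 8 arrays. The probe used, at 0.12, was well above background on all 8.

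The genes around the mitochondrial ribosome were mixed. Of the 5 subunit proteins without an Mrp symbol, 4 were positive, with a median of 0.10 and none called. Chchd1, a small-subunit protein, was at 0.20 ± 0.06 (SE; limma adjusted p = 0.144), with groups apart, and Aurkaip1, a small-subunit protein, at 0.14 ± 0.07 (adjusted p = 0.403), with overlap. Of 12 translation factors, 9 were positive (median 0.07, none called), and the median was 0.02 without sham 3 and 0.04 without nephrectomized 1. The elongation factors Gfm1 and Tufm had the smallest p, at 0.32 ± 0.08 and 0.29 ± 0.07 (SE; limma adjusted p = 0.0959 and 0.107), and both had groups apart. Of 21 assembly and ribosomal RNA modification factors, 12 were positive (median 0.05, none called), with a median of 0.03 without sham 3, 0.03 on slide 2 alone, 0.02 with normexp background correction and 0.08 with array weights. The ribosomal RNA methyltransferase Mettl15 was at 0.26 ± 0.07 (SE; limma adjusted p = 0.114), and Mpv17l2, which takes part in assembly, at 0.14.

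The 14 mitochondrial aminoacyl-tRNA synthetases and related enzymes had 10 positive values and a median of 0.06, which was 0.02 without sham 3, 0.04 without sham 2 and 0.04 with array weights. Qrsl1, a subunit of the enzyme that makes glutaminyl-tRNA, was at 0.25 ± 0.06 (SE; limma adjusted p = 0.0938) and Wars2 at 0.17. None was called. Genes of mitochondrial DNA transcription and upkeep had 9 of 19 positive and a median of -0.04. That median had no settled sign: it was -0.06 without sham 3, -0.01 without sham 4 and 0.00 without sham 1 or nephrectomized 4, and the mean over the list was 0.00. Slirp, which stabilises mitochondrial messenger RNA, was at 0.25 ± 0.06 (SE; limma adjusted p = 0.0845) and Polg2, the accessory subunit of the DNA polymerase, at -0.26 ± 0.10 (adjusted p = 0.258). Of 12 regulators of mitochondrial biogenesis 5 were positive, with a median of -0.09 and none called. The median was -0.05 without sham 1, -0.04 without sham 4, -0.03 with normexp or with the mean of a gene's probes, and -0.01 on slide 2 alone. The transcription factors Yy1 and Gabpa had the smallest p, at -0.12 ± 0.06 (limma adjusted p = 0.362) and -0.10 ± 0.06 (adjusted p = 0.443), with overlapping groups. Their motifs are described below, as is that of Nrf1. Nrf1 was on the positive side, at 0.11 ± 0.19 (limma adjusted p = 0.838), also with overlap.

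Other mitochondrial and ribosomal lists give the scale. Of 73 nuclear-encoded respiratory chain and ATP synthase genes 68 were positive, with a median of 0.17 and 1 called, Atp5mc1, which encodes a subunit of the membrane ring of ATP synthase and rose by 0.35 ± 0.06 (SE; limma adjusted p = 0.0438). Its call held in 5 of 21 alternatives and was lost when any 1 array was left out (adjusted p from 0.0283 to 0.532 over the alternatives), while the difference stayed between 0.28 and 0.39. The list's median was 0.11 without sham 3, 0.12 after quantile normalization and 0.11 after cyclic loess. Their mean per array ran from -0.13 to 0.06 in sham, with sham 3 again lowest, and from 0.11 to 0.19 in nephrectomized kidneys. Cytosolic ribosomal proteins had 52 of 79 positive and a median of 0.03, none called, and their array means overlapped, from -0.11 to 0.08 in sham and from -0.08 to 0.10 in nephrectomized kidneys. The sign of this median turned with the scaling and with single arrays: it was -0.04 after quantile normalization and after cyclic loess, -0.01 with normexp, -0.02 with array weights, -0.01 on slide 2 alone against 0.04 on slide 1, and -0.01 without sham 3 or nephrectomized 1. Without other single arrays it ran up to 0.05. Rpl14 and the ribosomal-like Rps12l4 had the smallest p, at 0.21 and -0.21. Of 21 import genes 15 were positive (median 0.10, none called; 0.05 on slide 1 alone), led by Timm8b at 0.32 ± 0.06 (SE; limma adjusted p = 0.0552) and Timm8a1 at 0.27, small chaperones of the intermembrane space. Of 10 chaperones and proteases 8 were positive (median 0.06, none called), with a median of 0.00 without sham 3, 0.03 after quantile normalization, 0.02 after cyclic loess, 0.02 on slide 1 and 0.12 on slide 2. The inner membrane proteases Afg3l2 and Spg7 had the smallest p of these, at 0.16 and 0.14, with groups apart. Whether the lists differ from each other was not tested.

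The starts of the members were also examined in sequence, because nuclear genes for mitochondrial proteins are often controlled by shared factors, among them NRF1, the ETS factor GABP and YY1. RefSeq promoters of build GRCr8, from 250 bases before to 50 bases after the start, were found for 54 of 66 members. Motifs were searched on both strands: GCGCA, any base and GCGC in a row for NRF1, CCGGAAG for ETS factors and AAGATGGCG for YY1. At least 1 of them occurred in 29 of 54 member promoters (53.7%), against 16.7% of 21851 protein-coding promoters and 27.1% of 8354 promoters of genes tested on the array. NRF1 letters were in 16.7% of member promoters (5.67% of all, 9.66% of tested), ETS letters in 35.2% (10.7% and 17.5%) and YY1 letters in 14.8% (2.07% and 3.59%). No ETS match overlapped a YY1 match. The palindrome CACGTG, the E-box, was in 11.1% (7.02% and 9.42%), and GGGCGG, the GC box, in 51.9% (41.8% and 60.5%). Matches are letters in a window and not measured sites.

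The medians of members with and without a motif were close. The median difference was 0.09 for the 9 members with NRF1 letters and 0.12 for the 45 without. It was 0.10 with and 0.12 without ETS letters, and 0.13 with and 0.11 without YY1 letters. Mrpl58 and Mrpl36 carry ETS letters and had differences of 0.25 and 0.00. Their 250 bases before the start are shown because these genes stand at the upper and lower part of the range with the same motif. Capitals mark the ETS match in both, and in Mrpl36 also a YY1 match on the reverse strand (Mrpl58 chr10:101145092-101145341, plus strand; Mrpl36 chr1:31795122-31795371, minus strand; GRCr8, each 5′ to 3′ in the direction of its gene).
Mrpl58: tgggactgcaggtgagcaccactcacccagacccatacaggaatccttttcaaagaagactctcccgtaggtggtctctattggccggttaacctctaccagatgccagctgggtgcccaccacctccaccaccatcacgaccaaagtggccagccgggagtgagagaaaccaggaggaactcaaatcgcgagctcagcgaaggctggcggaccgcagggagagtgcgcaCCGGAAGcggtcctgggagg
Mrpl36: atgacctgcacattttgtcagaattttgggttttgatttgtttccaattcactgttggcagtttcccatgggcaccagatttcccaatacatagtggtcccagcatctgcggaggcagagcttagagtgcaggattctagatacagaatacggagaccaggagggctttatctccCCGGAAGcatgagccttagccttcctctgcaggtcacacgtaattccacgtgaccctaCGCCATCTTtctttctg

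Members often stood head to head with a neighbour, so that a short stretch separates starts that run in opposite directions. Within 1000 bases this was found for 16 of 54 members (29.6%), against 6.86% of all and 10.9% of tested promoters. The median difference was 0.10 for these 16 and 0.12 for the other 38. In a single pair both genes are members: Mrpl46, of the large subunit, and Mrps11, of the small subunit, start 234 bases apart. Mrpl46 read 2.03, 2.14, 2.01 and 2.21 in sham and 2.22, 2.22, 2.21 and 2.16 in nephrectomized kidneys, and Mrps11 read 1.96, 1.95, 1.87 and 1.97 and then 2.11, 2.19, 2.13 and 1.88. In both genes nephrectomized 4 lay below the highest sham value, so the groups overlapped, with differences of 0.10 and 0.14. Mrpl47 and the complex I subunit Ndufb5, 244 bases apart, had differences of 0.13 and 0.20 (limma adjusted p = 0.142 for Ndufb5, whose groups were apart). In contrast Mrpl49 and Fau, which encodes a cytosolic ribosomal protein as a fusion with a ubiquitin-like protein, had 0.20 and 0.00 and start 186 bases apart.

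The stretches between starts are shown for the member pair and for a stretch with an NRF1 match (Mrpl30, shared with Mitd1) and an ETS match (Mrps27, shared with Ptcd2). They lie at chr1:142117031-142117263, chr9:47621034-47621226 and chr2:32474114-32474203 of GRCr8, all on the plus strand, each written 5′ to 3′ in the direction of the named member. Capitals mark the NRF1 or ETS letters, and the first stretch holds none of the 3 motifs.
Mrps11: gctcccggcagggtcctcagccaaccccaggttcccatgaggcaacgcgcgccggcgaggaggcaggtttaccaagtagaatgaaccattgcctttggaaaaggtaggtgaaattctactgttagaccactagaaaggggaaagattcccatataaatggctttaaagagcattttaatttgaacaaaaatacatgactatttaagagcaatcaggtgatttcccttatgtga
Mrpl30: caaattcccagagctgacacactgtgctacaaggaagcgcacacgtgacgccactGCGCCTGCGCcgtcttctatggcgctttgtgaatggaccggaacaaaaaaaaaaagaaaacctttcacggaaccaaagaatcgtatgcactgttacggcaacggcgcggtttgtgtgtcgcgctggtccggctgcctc
Mrps27: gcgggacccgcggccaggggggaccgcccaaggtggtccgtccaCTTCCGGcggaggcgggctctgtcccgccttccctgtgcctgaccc
The differences were 0.11 for Mrpl30 and 0.06 for Mitd1, and 0.18 for Mrps27 and 0.11 for Ptcd2. All 4 of these genes had overlapping groups.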

How the data were processed

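Total RNA was labelled with Cy3 and hybridised to 1-colour arrays, 1 per sample. Scanner files deposited by the authors come from Feature Extraction 10.5.1.1 (Agilent), and per the file headers their processed signal is an intensity corrected for background and spatial trend and not normalized between arrays. The deposited series table holds log2 values. Against the scanner values its columns had correlation 1 and slope 1, once those were shifted to the 75th percentile and each probe was centred on its median, with the same direction. Its column medians were -0.0145, -0.00231, -0.00103, -0.00968, 0.00123, 0.0124, -0.000916 and 0.0153 for sham 1 to 4 and nephrectomized 1 to 4.

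Control and outlier spots were left out, spots of 1 probe averaged, and log2 signals shifted to each array's 75th percentile. Probes well above background on at least 4 of 8 arrays were tested (25250 probes). A gene was taken from its brightest probe, by mean over all arrays, which left 20935 features with a value on every array. Nephrectomized and sham samples were compared by lmFit and eBayes (limma 3.58.1, R 4.3.3), adjusted over all features at 0.05. The steps were tested on simulated data whose planted changes were all larger than the largest member difference. That test therefore does not cover changes of the members' size. Probes were named by RefSeq accession through a table of assembly GRCr8 (18713 of 41012 probes matched). The number of arrays limits the precision.

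The topic and the lists were chosen with earlier results of these data known, while membership follows from the symbol alone. The families shared with bacteria were assigned after the values were seen, from the systematic names of ribosomal proteins except for Mrpl47. Named are the 8 genes with the smallest p in each direction, the extremes of each subunit and 15 genes chosen for their role. Mrpl10, Mrpl14, Mrpl22, Mrpl35, Mrpl36, Mrpl45, Mrpl49, Mrpl54, Mrps14, Mrps15, Mrps21 and Mrps25, and the pairs of neighbouring genes, were named after their values were seen. Of the other lists, up to 3 called genes, or else the 2 with the smallest p, are named. Calb1 and Nrf1 were named after their values were seen. The deviations of same-numbered sham and nephrectomized samples from their group means had correlations of 0.141, 0.011, -0.057 and -0.209. Such weak correlations cannot decide whether the numbers pair the samples, and the main comparison used no pairing. Alternatives were other background corrections, normalizations, filters, probe rules, blocks, weights, the deposited table and leaving out each array.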

Additional observations from a re-analysis of the deposited data

Results flagged for a closer look

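Mrpl13, a core protein of the large subunit, was the single member flagged among 60 groups of 4 arrays checked. Nephrectomized 1 read 4.51, and the other nephrectomized arrays read between 4.56 and 4.57, so this array stood apart from a tight group while still lying above the highest sham value of 4.40. Chance flags about 1 in 20 groups.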

How the results depend on the processing

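No member was called under any alternative except array weights, which called 2, Mrpl58 (limma adjusted p = 0.042; 0.042 to 0.615 over its 21 alternatives) and Mrpl4 (0.0444; 0.0444 to 0.594). With no scaling between arrays the member median was -0.1545. Under all other settings it lay between 0.08 and 0.13, also between 0.08 and 0.13 with 1 array left out, and was 0.09 with normexp, where the median of all features was 0.04 and 63.1% were positive. The large minus small median was 0.0166 on slide 1 alone and 0.0193 with means in place of medians, and ran from -0.0296 to 0.0126 with 1 array left out. With the replicate number as a block, 0 members were called and the member median was 0.12. With the block 6 features were called higher and 4 lower, against 157 and 60 without it, and sham 1 alone correlated best with its own number. Over all features, slide as a block gave 69 and 31 calls, no filter 17 and 3, a filter on all 8 arrays 295 and 99, array weights 384 and 118, each slide alone 0 (2 and 3 members at an unadjusted p under 0.05), and leaving out sham 2 gave 18 and 4. Of 546 values of the 26 named genes, 525 kept direction and side of the threshold and 19 turned in sign, in 7 genes that were near 0 apart from Mrpl12, at 0.13. Normexp gave 0.0136 for Mrpl40, 0.0316 for Mrpl32, 0.0039 for Mrpl52, -0.0458 for Mrpl12 and 0.026 for Mrps30. Slide 1 alone gave 0.062 for Mrps35 and 0.0048 for Mrps30, slide 2 alone 6e-04 for Mrpl32 and 0.0453 for Mrpl52, and array weights 0.0092 for Mrps30. With 1 array left out, Mrpl40 ran from -0.0775 to 0.0029, Mrpl23 from -0.046 to 0.0213, Mrpl32 from -0.0298 to 0.0111, Mrpl52 from -0.0365 to 0.0162 and Mrps30 from -0.0274 to 0.0295. The causes were not tested. Cyclic loess and no scaling were added after the data were seen.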
